A study of Homo sapiens with 45 samples.

Results

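A module of 35 genes for inflammatory cytokines, their receptors and the NF-kB proteins and feedback inhibitors was followed through 3 cancer cell lines that received 1 of 3 microRNA precursors. The members were listed by name, with earlier results of these data known. They are 8 chemokines (CXCL1, CXCL2, CXCL3, CXCL5, CXCL6, CXCL8, CCL2, CCL20), 5 genes of the interleukin 1 (IL-1) family and its receptor (IL1A, IL1B, IL18, IL1R1, IL1RAP), 4 genes of gp130 signalling (IL6, IL11, LIF, IL6ST), 5 other cytokines (CSF1, CSF2, CSF3, TNF, IL32), 4 NF-kB subunits (NFKB1, NFKB2, RELA, RELB), 5 feedback inhibitors (NFKBIA, NFKBIZ, TNFAIP3, TNIP1, BIRC3) and 4 further induced genes (TNFAIP2, ICAM1, PTGS2, SOD2). Of these, 33 had a probe set annotated to 1 gene symbol, and all 33 passed the filter on dim probe sets, out of 19775 genes with such a probe set and 15599 that passed. The expression of CSF2 and BIRC3 was not analysed here.

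HEY and SKOV3 come from ovarian cancers and PC3 from a prostate cancer. Cells in 6-well plates were transfected at 33 nM with the precursor of 1 microRNA (miR-203a in 1 group, miR-205 in another, miR-429 in the third) or with miR-NC, the negative control, in the lipid reagent Lipofectamine. A further group of each line was left untransfected, and total RNA was taken after 48 h. Each of the 15 groups of a line and a treatment has 3 arrays, which limits the precision of every value; the labels do not say whether they come from separate cultures, so p-values measure only the spread between these arrays. A lower value in such bulk RNA can mean fewer expressing cells or less RNA per cell, which cannot be told apart. The transfection was transient, the labels name no arm of the precursors, and the level of each microRNA reached in the cells was not analysed here.

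NF-kB is a family of paired transcription factors that inhibitors such as IkB-alpha hold in the cytoplasm. IL-1, TNF and Toll-like receptor signals lead to the destruction of these inhibitors, and the freed dimers switch on chemokine, cytokine and adhesion genes together with the genes of their own inhibitors, which closes a feedback loop. Many carcinoma lines make CXCL chemokines and IL-6 without added stimulus, and the microRNAs of the study are known as keepers of the epithelial state.

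The mature microRNAs are shown first because their seeds (bases 2 to 8, in capitals) set which transcripts they pair with. They come from RefSeq on GRCh38.p14 and are written 5′ to 3′. The labels do not say which strand was active, so the arm best known for each precursor is printed for the first 2.
hsa-miR-203a-3p: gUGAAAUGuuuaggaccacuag
hsa-miR-205-5p: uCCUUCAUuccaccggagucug
hsa-miR-429: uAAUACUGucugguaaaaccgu
They lie at chr14:104117469-104117490, chr1:209432166-209432187 and chr1:1169055-1169076, in this order and all on the plus strand. The 3 seeds differ from one another. The seed of hsa-miR-429 is also that of hsa-miR-200b-3p and hsa-miR-200c-3p, and no other mature microRNA in the table used has the seed of either of the first 2.

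Promoters of 6 members whose responses ran in opposite directions in different lines, or which lie together on chromosome 4, are shown from 250 bases before to 50 bases after the start of the gene, on the strand of the gene, with a match to an NF-kB motif in capitals (RefSeq, GRCh38.p14). Other members that fit this description are not shown. Among them, IL1RAP, TNF, PTGS2 and TNFAIP2 held no match, while CXCL5, CXCL6, IL6ST, TNFAIP3 and NFKBIA held a match. NFKB1 and TNIP1 each held a match in a promoter and none in another. No promoter of LIF, CSF1 or CSF3 was searched. CXCL1, CXCL2 and CXCL3 carry GGGAATTTCCC in almost the same place, with its first base at −79, −78 and −79 from the start.
CXCL1: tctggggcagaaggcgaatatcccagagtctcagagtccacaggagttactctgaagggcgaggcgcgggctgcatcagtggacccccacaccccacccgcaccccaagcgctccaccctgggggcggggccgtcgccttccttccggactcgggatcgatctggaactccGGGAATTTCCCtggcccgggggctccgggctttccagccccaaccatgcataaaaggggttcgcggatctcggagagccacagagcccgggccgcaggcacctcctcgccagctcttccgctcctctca
CXCL2: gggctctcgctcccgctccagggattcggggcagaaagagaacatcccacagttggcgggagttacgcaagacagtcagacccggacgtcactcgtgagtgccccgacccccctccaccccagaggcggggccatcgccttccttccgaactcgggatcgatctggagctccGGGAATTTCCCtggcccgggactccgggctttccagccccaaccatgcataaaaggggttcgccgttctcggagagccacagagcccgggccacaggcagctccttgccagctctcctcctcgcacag
CXCL3: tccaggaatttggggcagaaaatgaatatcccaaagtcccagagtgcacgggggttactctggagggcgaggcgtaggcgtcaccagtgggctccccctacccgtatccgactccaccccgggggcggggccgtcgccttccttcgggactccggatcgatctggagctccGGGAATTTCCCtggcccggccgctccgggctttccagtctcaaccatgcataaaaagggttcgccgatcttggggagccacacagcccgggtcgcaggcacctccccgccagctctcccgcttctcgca
CXCL8: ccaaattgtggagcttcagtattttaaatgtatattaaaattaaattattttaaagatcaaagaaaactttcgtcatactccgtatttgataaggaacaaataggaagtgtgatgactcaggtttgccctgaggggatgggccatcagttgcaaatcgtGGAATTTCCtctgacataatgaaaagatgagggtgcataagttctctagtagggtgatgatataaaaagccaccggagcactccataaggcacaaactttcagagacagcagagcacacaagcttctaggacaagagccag
IL6: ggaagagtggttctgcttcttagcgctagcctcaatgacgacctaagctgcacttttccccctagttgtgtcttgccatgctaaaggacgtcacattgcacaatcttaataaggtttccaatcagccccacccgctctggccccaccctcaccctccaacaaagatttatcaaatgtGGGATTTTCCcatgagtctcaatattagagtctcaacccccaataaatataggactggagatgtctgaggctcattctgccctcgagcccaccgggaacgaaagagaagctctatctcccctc
CCL20: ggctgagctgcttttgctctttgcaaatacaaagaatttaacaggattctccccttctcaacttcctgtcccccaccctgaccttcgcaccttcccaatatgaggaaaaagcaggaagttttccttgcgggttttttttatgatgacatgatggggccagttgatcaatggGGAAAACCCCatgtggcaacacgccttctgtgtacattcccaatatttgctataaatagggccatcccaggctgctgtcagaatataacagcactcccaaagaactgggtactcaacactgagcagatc
CXCL1 lies at chr4:73869143-73869442 (plus strand), CXCL2 at chr4:74099146-74099445 (minus), CXCL3 at chr4:74038640-74038939 (minus) and CXCL8 at chr4:73740319-73740618 (plus). The windows of IL6, at chr7:22726950-22727249 (plus), and CCL20, at chr2:227813592-227813891 (plus), hold GGGATTTTCC and GGAAAACCCC. Compared base by base without gaps, CXCL1 and CXCL3 are identical at 206 of 300 bases, CXCL1 and CXCL2 at 155, and CXCL1 and CXCL8 at 75. The kappa-B consensus of 10 bases, searched on both strands, was found in 18 of 43 promoters of 29 member genes, CSF2 and BIRC3 among them (41.9%) and in 3956 of all 35116 promoters (11.3%). GGAATTTCC, a palindrome apart from its middle base and also part of GGGAATTTCCC, was found in 10 of the 43 (23.3%) and in 162 of all promoters (0.461%). A match describes the letters in this window only.

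Several facts of the series bear on all results. Values are log2 intensities, and the median of all of them, 4.89, is taken as a level near background, below which the size of a difference is uncertain. The 9 arrays labelled untransfected go against their labels. Of the genes specific to a line among the transfected arrays, those of HEY were on at 0% in the arrays labelled untransfected HEY, while 87.3% of the SKOV3 genes were, and the arrays labelled untransfected PC3 had 100% of the HEY genes on and 0% of the PC3 genes. The arrays labelled untransfected SKOV3 were mixed, with 4.44% of the HEY genes, 31.3% of the SKOV3 genes and 40.9% of the PC3 genes on. All 36 transfected arrays were highest for the line on their label. The genes were picked from these same arrays by label, however, so this does not check the labels of the transfected arrays. The untransfected arrays therefore serve no comparison here, but they share in the estimate of the spread, so counts are also given from a fit without them. ERBB2, which is amplified in SKOV3, had group means of 11.31 to 11.71 in transfected SKOV3 cells, against 6.76 to 7.77 in HEY and 5.99 to 7.33 in PC3. In the arrays labelled untransfected HEY, ERBB2 averaged 12.31. HOXB13, a prostate gene, did not separate PC3 miR-NC (6.56) from SKOV3 miR-NC (6.70). It averaged 11.73 in the arrays labelled untransfected SKOV3, against 5.36 to 8.19 in transfected PC3. PAX8, also listed as a line marker, averaged 10.41 to 11.59 in transfected HEY and 10.56 to 10.73 in transfected SKOV3, against 5.70 to 6.77 in PC3. Of 5 leukocyte markers with a probe set, all group means of transfected cells lay below 4.89 except that of LYZ in PC3 miR-203a (5.26) and PC3 miR-NC (4.93). Of 4 fibroblast markers, DCN and PDGFRB averaged 3.23 to 5.37 in the transfected groups. COL1A1 was above 4.89 in all groups, at 11.21 with miR-203a, 12.13 with miR-205 and 11.89 with miR-429 in PC3, against 12.46 with miR-NC. LUM stood at 7.18, 8.80 and 9.01 in the same PC3 groups, against 9.17 with miR-NC, and at 1.90 to 3.23 in transfected HEY and SKOV3. The part of other cells in the results was not tested.

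The array's control probe sets for housekeeping transcripts differed between groups, at the 5′ end and, for GAPDH, at the 3′ end too. The GAPDH 5′ probe set averaged 9.99 with miR-203a, 8.70 with miR-205 and 4.54 with miR-429 in PC3, against 5.04 with miR-NC. In HEY it averaged 8.95, 12.28 and 6.25 with the same precursors, against 8.37 with miR-NC, and in SKOV3 13.73, 13.75 and 13.70, against 13.74. The GAPDH 3′ probe set averaged 12.33 with miR-203a, 12.14 with miR-205 and 10.00 with miR-429 in PC3, against 10.32 with miR-NC. In HEY the same probe set averaged 12.35, 13.76 and 13.59, against 12.28. The middle and 3′ probe sets of GAPDH also averaged 13.70 to 13.89 in transfected SKOV3, so near the top of the scale that a difference there may not show. The ACTB 5′ probe set averaged 4.72 in PC3 miR-NC, 13.73 in SKOV3 miR-NC and 6.24 in HEY miR-NC, while the 3′ probe set of the same gene averaged 13.41, 13.65 and 13.73. The part of these differences in the results below was not tested.

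The control-transfected lines differed in most members. Between PC3 and SKOV3, 28 of 33 members were called (18 higher and 10 lower in PC3), where 81.2% of all tested genes were called, 44.2% higher and 36.9% lower; a member or gene is called where limma's adjusted p, by Benjamini-Hochberg over the 15599 genes, is below 0.05. Between PC3 and HEY 24 members were called (12 higher, 12 lower in PC3; all genes 56.6%, 25.5% higher and 31.1% lower), and between SKOV3 and HEY 25 (7 higher, 18 lower in SKOV3; all genes 78.4%, 35% higher and 43.4% lower). The members' median difference was 0.55 for PC3 against SKOV3 (all genes 0.13), 0.15 for PC3 against HEY (−0.08) and −0.69 for SKOV3 against HEY (−0.13). Without the arrays labelled untransfected the counts were 29, 25 and 27, of which 28, 24 and 25 were the same members.

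**Figure D1:**
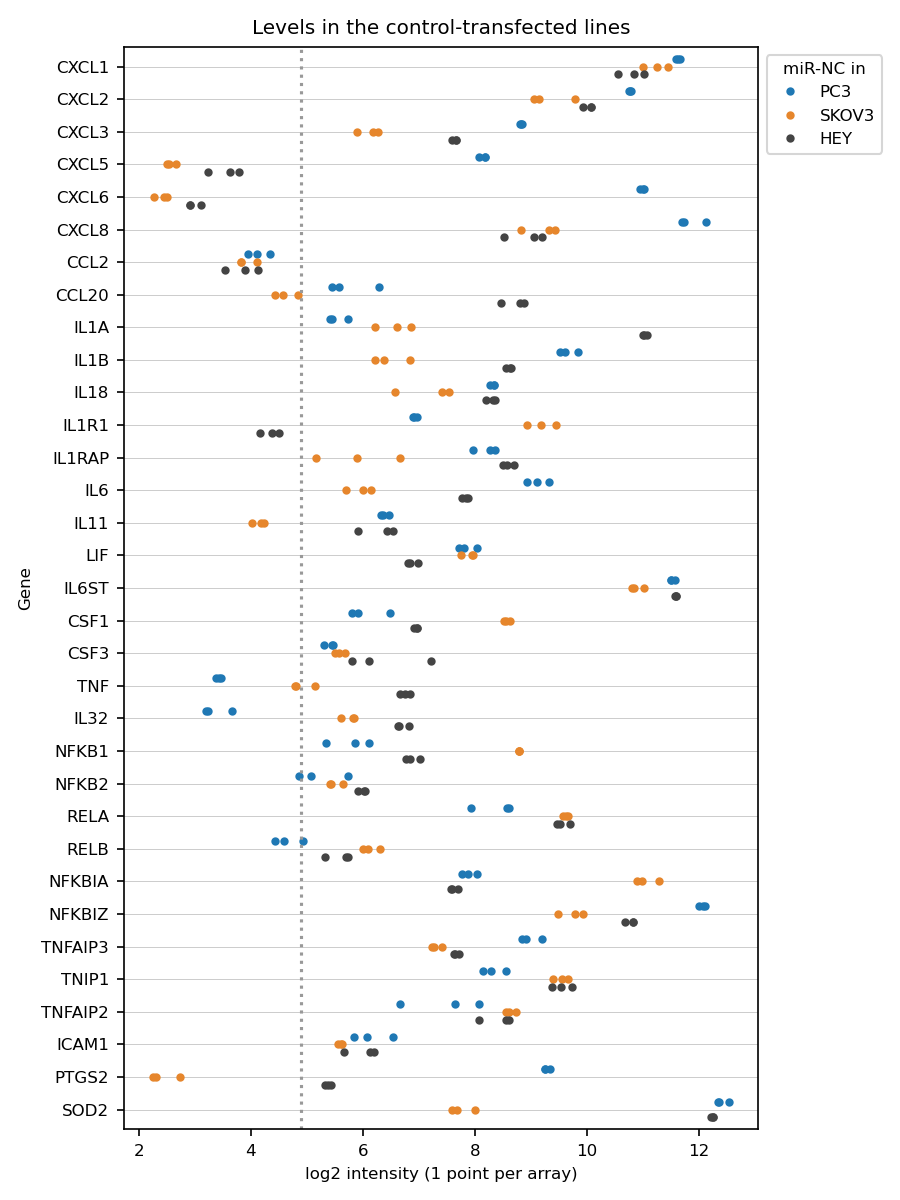
Levels of the 33 members in control-transfected cells, with 1 point per miR-NC array (PC3 blue, SKOV3 orange, HEY dark grey), the log2 intensity on the x axis and the genes by role down the y axis. CXCL6 lies near 11 log2 units in PC3 and below the dotted line, the median of all values at 4.89, in both ovarian lines, and IL1A lies near 11 in HEY alone.

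PC3 miR-NC cells had the chemokines CXCL5 and CXCL6, which attract neutrophils, and PTGS2, the inducible enzyme of prostaglandin synthesis, at levels the ovarian lines did not reach. CXCL6 stood at 11.00, 11.01 and 10.95 log2 units in PC3 miR-NC, against 2.28, 2.45 and 2.51 in SKOV3 miR-NC and 3.11, 2.92 and 2.93 in HEY miR-NC. All PC3 arrays were far above those of the other lines, whose values lay near background, and the differences were 8.57 and 8.0 (SE 0.18, adjusted p = 2.07e-30 and 3.92e-29). CXCL5 read 8.07, 8.18 and 8.17 in PC3 miR-NC, against 2.55, 2.51 and 2.67 in SKOV3 miR-NC and 3.80, 3.62 and 3.23 in HEY miR-NC, so that it too was above background in PC3 alone. Its probe set may cross-hybridise, however, and the gene's other 2 probe sets, near background, gave 0.55 and 1.50 for PC3 against SKOV3 and 0.53 and 0.62 for PC3 against HEY, where the one used gave 5.56 and 4.59. PTGS2 gave 9.24, 9.26 and 9.33 in PC3 miR-NC, against 2.31, 2.25 and 2.74 in SKOV3 miR-NC and 5.44, 5.32 and 5.37 in HEY miR-NC. The lines did not overlap, and the difference was 6.84 to SKOV3 and 3.90 to HEY (SE 0.16). IL6 averaged 9.12 ± 0.19 in PC3 miR-NC, 5.95 ± 0.23 in SKOV3 miR-NC and 7.83 ± 0.05 in HEY miR-NC (SD, n = 3 each), and IL1B showed the same order with 9.65 ± 0.17, 6.48 ± 0.33 and 8.61 ± 0.05.

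HEY cells held the highest levels of IL1A, an alarm cytokine of the IL-1 family, of CCL20, the ligand of CCR6, and of TNF. IL1A was at 5.73, 5.45 and 5.41 in PC3 miR-NC and at 6.23, 6.86 and 6.61 in SKOV3 miR-NC, against 10.99, 11.01 and 11.07 in HEY miR-NC, with no overlap (PC3 against HEY −5.50, SKOV3 against HEY −4.46, SE 0.63). CCL20 was at 4.85, 4.58 and 4.43 in SKOV3 miR-NC, against 8.80, 8.88 and 8.47 in HEY miR-NC, a difference of −4.10 ± 0.27 (SE, adjusted p = 2.13e-16), with PC3 between them at 6.29, 5.58 and 5.46. TNF was at 3.37, 3.46 and 3.43 in PC3 miR-NC, below the median of all values, against 6.76, 6.67 and 6.85 in HEY miR-NC. The cytokine gene IL32 likewise lay near background in PC3 miR-NC, at 3.23, 3.21 and 3.67, against 6.82, 6.63 and 6.65 in HEY miR-NC.

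SKOV3 stood out by high NFKBIA, which encodes IkB-alpha, by high IL1R1, the signalling receptor of IL-1, and by low SOD2, the mitochondrial superoxide dismutase. NFKBIA was at 7.77, 7.87 and 8.04 in PC3 miR-NC, against 10.89, 11.28 and 10.97 in SKOV3 miR-NC, a difference of −3.15 ± 0.21 (SE), and HEY miR-NC was close to PC3 at 7.69, 7.57 and 7.59. A second NFKBIA probe set, near background, gave 0.56 for PC3 against SKOV3 and −0.21 for SKOV3 against HEY, where the one used gave −3.15 and 3.43. IL1R1 was at 8.93, 9.45 and 9.18 in SKOV3 miR-NC, against 4.50, 4.37 and 4.17 in HEY miR-NC. All SKOV3 arrays were above the median of all values and all HEY arrays below it. A second IL1R1 probe set, near background on average, gave 0.69 for SKOV3 against HEY, where the one used gave 4.84. For PC3 against SKOV3 it gave 0.69, where the one used gave −2.27. SOD2 was at 12.54, 12.34 and 12.36 in PC3 miR-NC, against 7.59, 8.0 and 7.68 in SKOV3 miR-NC (4.65 ± 0.24, SE), and the HEY miR-NC arrays at 12.21, 12.25 and 12.24 were close to PC3, with a difference that was not called (0.18, adjusted p = 0.551). CXCL8 (2.66 higher in PC3 than in SKOV3) was −1.31 by another probe set of the gene, the one used when probe sets that may cross-hybridise were left out, so its order between these lines depends on the probe set. Those of IL6ST, NFKB2 and NFKBIZ between SKOV3 and HEY also turn with the mean of all probe sets of the gene (−0.69 against 0.55, −0.49 against 0.46 and −1.04 against 0.64), as does IL6ST between PC3 and SKOV3 (0.64 against −1.15).

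The responses to the precursors were set against miR-NC in the same line, and the 3 precursors of a line share its miR-NC arrays. With miR-205, 29 of 33 members were called in HEY (12 higher, 17 lower), where 65.8% of all genes were (33.6% higher, 32.2% lower). In SKOV3 12 were called (4 higher, 8 lower; all genes 25.6%, 16.8% higher and 8.81% lower), and in PC3 24 (22 higher, 2 lower; all genes 48.4%, 28.7% higher and 19.7% lower). The member medians with miR-205 were −0.70 in HEY, −0.13 in SKOV3 and 0.87 in PC3, while those of all genes were 0.06, 0.03 and 0.05. With miR-203a, 12 members were called in HEY (0 higher, 12 lower), where 13.2% of all genes were (5.82% higher, 7.33% lower). In SKOV3 6 were called (2 higher, 4 lower; all genes 11.9%, 7.06% higher and 4.88% lower) and in PC3 19 (13 higher, 6 lower; all genes 56.1%, 31.1% higher and 25% lower), with medians in the 3 lines of −0.44, −0.11 and 0.12 (all genes 0.01, 0.00 and 0.06). With miR-429, 21 members were called in HEY (7 higher, 14 lower), where 56.8% of all genes were (21% higher, 35.7% lower). In SKOV3 10 were called (2 higher, 8 lower; all genes 22.1%, 14.9% higher and 7.18% lower) and in PC3 11 (1 higher, 10 lower; all genes 46%, 16.3% higher and 29.7% lower), with medians in the 3 lines of −0.28, −0.38 and −0.01 (all genes −0.15, −0.01 and −0.13). The share of members called was thus below that of all genes in PC3 miR-429 (33.3%) and above it in the other comparisons. It was above by little in PC3 miR-203a (57.6%), HEY miR-429 (63.6%), SKOV3 miR-203a (18.2%) and SKOV3 miR-429 (30.3%). The other shares were 36.4% in HEY miR-203a and in SKOV3 miR-205, 72.7% in PC3 miR-205 and 87.9% in HEY miR-205. With 33 members a few genes make such a gap, and the shares were not tested.

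In the fit without the arrays labelled untransfected, which had a smaller spread for some genes, 14, 8 and 20 members were called with miR-203a in HEY, SKOV3 and PC3 (all genes 17.6%, 15.7% and 60.2%), 31, 15 and 26 with miR-205 (68.3%, 31% and 52.8%) and 24, 17 and 14 with miR-429 (60.1%, 27.8% and 51.1%). The calls of the fit with all arrays were kept in it apart from CXCL5 in SKOV3 miR-205. The count for HEY miR-203a was 7 without HEY miR-203a replicate 2. In PC3 miR-429, where the deposited values of all genes were shifted down, making the array medians equal ended the calls of CXCL5, IL1B, PTGS2, RELB, NFKB1 and CCL2 (adjusted p of 0.182 to 0.737). That setting moved the median difference of all tested genes from −0.13 to 0.29, and quantile normalisation moved it to −0.01. After quantile normalisation RELB, NFKB1 and CCL2 lost their calls (adjusted p of 0.472 to 0.925), while CXCL5, IL1B and PTGS2 kept theirs.

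**Figure D2:**
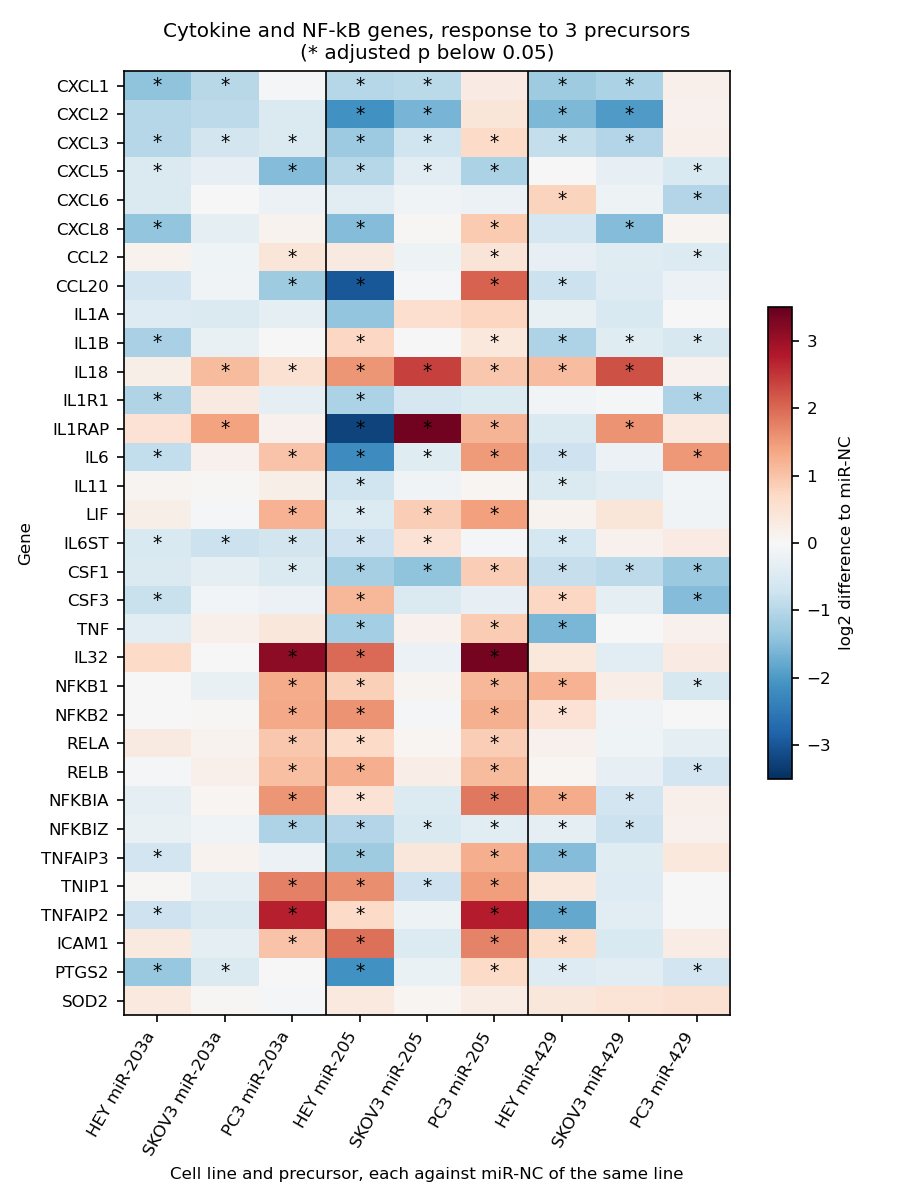
Log2 difference to miR-NC of each member (rows, by role) for each precursor in each line (columns), in colour from blue (lower) to red (higher); an asterisk marks an adjusted p below 0.05. The PC3 miR-205 column is mostly red (22 members called higher, 2 lower), and the HEY miR-203a column holds 12 lower calls and no higher one.

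Chemokines. The GRO chemokines CXCL1, CXCL2 and CXCL3, which act on the receptor CXCR2, were lower in both ovarian lines with miR-205 and with miR-429, and CXCL3 was lower in all 3 lines with miR-203a. CXCL1 was at 9.45, 9.33 and 9.35 in HEY miR-203a, 9.62, 9.94 and 9.85 in HEY miR-205 and 9.46, 9.50 and 9.68 in HEY miR-429, against 10.83, 11.01 and 10.55 in HEY miR-NC. Every array with a precursor of the 3 lay below every miR-NC array (log2 differences −1.42, −1.0 and −1.25, SE 0.16, adjusted p = 8.64e-08, 1.94e-06 and 4.73e-08). In SKOV3 it was at 10.46, 10.15 and 10.21 with miR-203a, 10.26, 10.36 and 10.24 with miR-205 and 10.31, 10.08 and 9.98 with miR-429, against 11.00, 11.45 and 11.24 with miR-NC, again without overlap (−0.96, −0.94 and −1.10). In PC3 it averaged 11.59 ± 0.08, 11.91 ± 0.17 and 11.80 ± 0.09 with the 3 precursors in the same order, against 11.62 ± 0.04 with miR-NC (SD, n = 3 each), and no difference was called. The response of CXCL1 differed between the lines for each precursor (moderated F-test, adjusted p = 2.8e-05, 6.84e-06 and 2.42e-06).

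CXCL2 followed with larger differences but a wider error. It was at 7.70, 7.96 and 8.05 in HEY miR-205 and 8.33, 8.43 and 8.61 in HEY miR-429, against 10.08, 10.07 and 9.93 in HEY miR-NC (−2.12 and −1.57, SE 0.47, adjusted p = 0.000148 and 0.00444). In SKOV3 it was at 7.60, 7.81 and 7.72 with miR-205 and 7.39, 7.44 and 7.18 with miR-429, against 9.05, 9.79 and 9.14 with miR-NC (−1.62 and −1.99). The groups were apart by more than their own ranges in both lines. The miR-205 call in SKOV3 was lost without SKOV3 miR-NC replicate 2 (−1.39, adjusted p = 0.0545). With miR-203a, picked out after its values were seen, CXCL2 was at 8.90, 9.09 and 9.13 in HEY and 8.25, 8.66 and 8.35 in SKOV3, below all miR-NC arrays of each line, but was not called (−0.99 and −0.91, adjusted p = 0.178 and 0.263). The arrays labelled untransfected HEY gave 10.06, 6.30 and 6.12 for this gene and widened its error; without the untransfected arrays the HEY difference had an SE of 0.14 and an adjusted p of 5.13e-06. The probe set is of a kind that may cross-hybridise, and the gene's other probe sets were near background. The brighter of these gave −0.61 in HEY miR-205, −0.32 in HEY miR-429, −0.22 in SKOV3 miR-205 and −0.27 in SKOV3 miR-429, none of them called. The dimmer gave −0.24, −0.004, −0.62 and −0.49 in the same comparisons.

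CXCL3 was at 6.50, 6.85 and 6.55 in HEY miR-203a, against 7.60, 7.66 and 7.66 in HEY miR-NC (−1.01 ± 0.17, SE). The SKOV3 values were 5.47, 5.51 and 5.46 with miR-203a, against 5.89, 6.27 and 6.19 with miR-NC, and the PC3 values 8.31, 8.30 and 8.31, against 8.80, 8.83 and 8.82. In each line the arrays did not overlap, the differences of −0.64 and −0.51 were called, and the line difference was not (adjusted p = 0.206). The SKOV3 call was lost without SKOV3 miR-NC replicate 2 (−0.56, adjusted p = 0.071). With miR-205 CXCL3 went opposite ways: it was 6.47, 6.27 and 6.31 in HEY and 5.20, 5.37 and 5.70 in SKOV3 (−1.28 and −0.69), and 9.36, 9.42 and 9.71 in PC3 (0.68 ± 0.17, adjusted p = 0.0014), on either side of the miR-NC values just given (line difference adjusted p = 4.37e-08). With miR-429 it was lower in HEY (−0.84) and SKOV3 (5.11, 5.15 and 5.02, −1.02) and not called in PC3 (0.17).

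**Figure D3:**
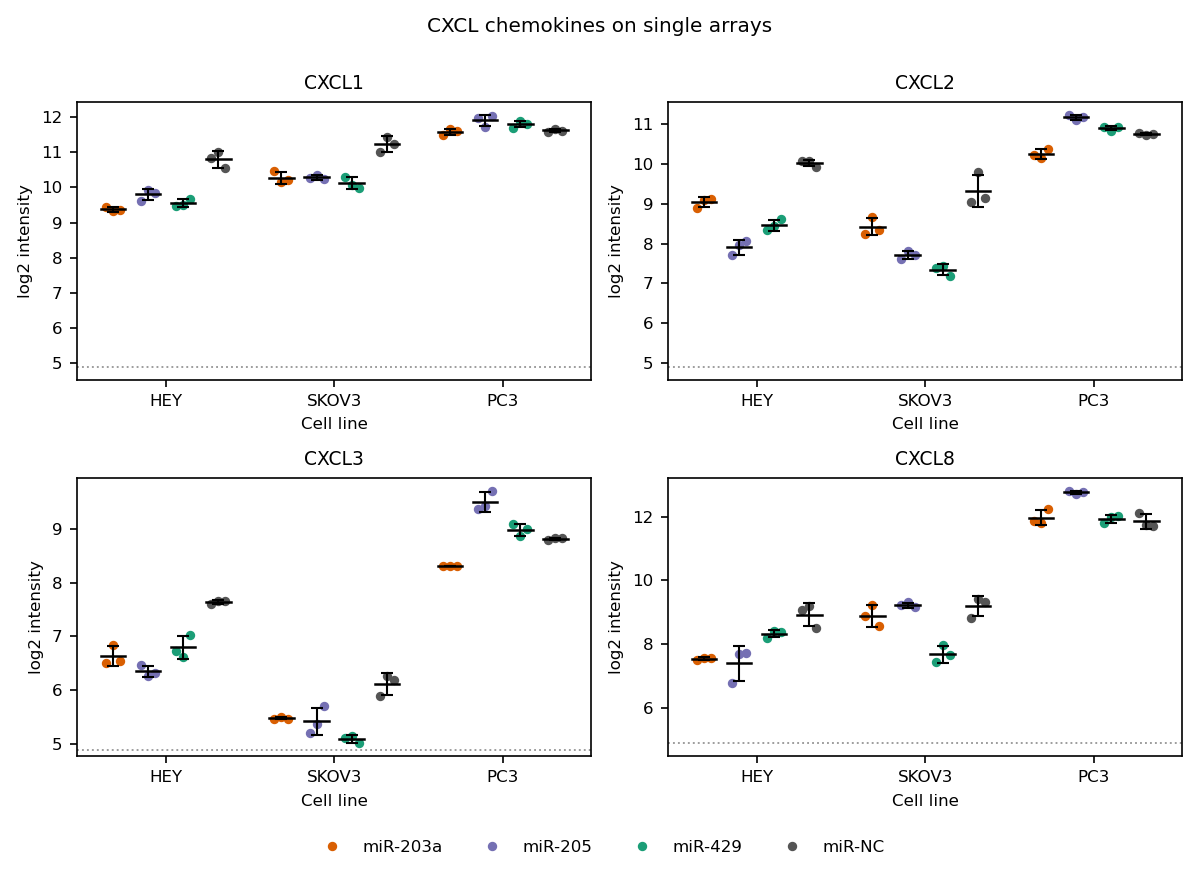
Log2 intensity of CXCL1, CXCL2, CXCL3 and CXCL8 on each array (1 point each) by line and precursor, with miR-NC at the right of each line, the mean ± SD of each group as bars and a dotted line at 4.89. CXCL1 with any of the 3 precursors lies below all miR-NC arrays in HEY and SKOV3 and beside them in PC3, where its means run from 11.59 to 11.91.

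CXCL8, or interleukin 8, was at 7.49, 7.58 and 7.55 in HEY miR-203a and 6.77, 7.70 and 7.71 in HEY miR-205, against 9.05, 9.19 and 8.52 in HEY miR-NC (−1.38 and −1.53, SE 0.32). In SKOV3 it was lower with miR-429 alone, at 7.43, 7.96 and 7.65, against 8.83, 9.42 and 9.32 with miR-NC (−1.51, adjusted p = 0.000439). In PC3 it was higher with miR-205, at 12.82, 12.72 and 12.77, against 12.13, 11.73 and 11.70 (0.92, adjusted p = 0.0163), a call that was lost without PC3 miR-NC replicate 2 or 3 (0.85 and 0.84, adjusted p = 0.0519 and 0.0546). These arrays did not overlap, but the probe set may cross-hybridise. The gene's other probe set gave −0.43 and −0.40 in the HEY comparisons, neither called, and differences of 2.26 for PC3 miR-203a and 2.50 for PC3 miR-205, where the one used gave 0.12 and 0.92.

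CCL20 responded to miR-205 in opposite directions in HEY and PC3. It was at 5.06, 6.18 and 5.98 in HEY miR-205, against 8.80, 8.88 and 8.47 in HEY miR-NC, and at 7.62, 7.61 and 8.30 in PC3 miR-205, against 6.29, 5.58 and 5.46 in PC3 miR-NC. All HEY arrays with miR-205 were below and all PC3 arrays with it above those with miR-NC (−2.97 and 2.07, SE 0.27, adjusted p = 3.65e-12 and 4.66e-08). In SKOV3, near background, it was not called (−0.03), and the lines differed (adjusted p = 5.66e-13). In PC3 miR-203a it was at 4.95, 4.56 and 4.05, below miR-NC (−1.26, adjusted p = 0.000129).

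CXCL5 and CXCL6, high in PC3, were lower there in some groups. CXCL5 was at 6.33, 6.58 and 6.99 in PC3 miR-203a, against 8.07, 8.18 and 8.17 in PC3 miR-NC (−1.51 ± 0.14, adjusted p = 2.18e-11), and the differences with miR-205 and miR-429 were −1.10 and −0.54. The other 2 CXCL5 probe sets gave −0.32 and 0.21 for PC3 miR-203a, and the gene did not pass the filter in the fits that average probe sets or leave out those that may cross-hybridise. CXCL6 was at 9.75, 9.94 and 10.15 in PC3 miR-429, against 11.00, 11.01 and 10.95 (−1.04 ± 0.18). Neither overlapped with miR-NC. CXCL6 was higher in HEY miR-429 (0.78) at levels near background, where it read 3.33, 4.66 and 3.31, and CCL2, the monocyte chemokine, was near background in all transfected groups.

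The IL-1 family. In the fit with all arrays, IL18, which is made as an inactive precursor and cut by inflammasomes, was the only member called higher in all 3 lines by 1 precursor, where 2.77% of all genes were called higher in all 3 with miR-205. SOD2 was so called with miR-429 in the fit without the untransfected arrays. With equal array medians IL18 was so called with miR-429 too. It was at 9.83, 9.75 and 9.96 in HEY miR-205, against 8.33, 8.21 and 8.36 in HEY miR-NC, and at 9.51, 9.67 and 9.49 in SKOV3 miR-205, against 6.58, 7.54 and 7.41 in SKOV3 miR-NC. In PC3 it was at 9.35, 9.16 and 9.27, against 8.34, 8.34 and 8.26. No arrays overlapped in the 3 lines, where the differences were 1.55, 2.38 and 0.95 (SE 0.16, adjusted p = 1.31e-10, 4.69e-14 and 6.27e-06), and they were unequal (line difference adjusted p = 5.34e-06). With miR-429 it was at 9.34, 9.37 and 9.46 in HEY and 9.65, 9.30 and 9.27 in SKOV3 (1.09 and 2.23) and not called in PC3 (0.15), and with miR-203a it was higher in SKOV3 at 8.41, 8.13 and 8.30 (1.10) and in PC3 (0.53).

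IL1RAP, the accessory chain that both IL-1 and IL-33 receptors need to signal, had the largest rise and the largest fall of all members with miR-205, in different lines. It was at 5.13, 4.77 and 6.13 in HEY miR-205, against 8.58, 8.70 and 8.49 in HEY miR-NC (−3.25 ± 0.26, adjusted p = 2.34e-13). In SKOV3 it was at 9.35, 9.24 and 9.24 with miR-205, 7.82, 7.19 and 7.43 with miR-429 and 7.29, 7.30 and 7.36 with miR-203a, against 5.90, 5.16 and 6.66 with miR-NC. All SKOV3 arrays with a precursor lay above those with miR-NC, by 3.37, 1.57 and 1.41 (SE 0.26), although the miR-NC arrays were widely spread. In PC3 it was at 9.40, 9.44 and 9.29 with miR-205, against 7.96, 8.36 and 8.27 (1.18, adjusted p = 0.000266), and the lines differed (adjusted p = 4.64e-16). A second, dimmer probe set of the gene gave −1.14, 0.42 and −0.10 for miR-205 in HEY, SKOV3 and PC3.

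IL1B, whose product shares its receptor with that of IL1A, was lower in HEY miR-203a at 7.56, 7.59 and 7.29, against 8.64, 8.55 and 8.62 in HEY miR-NC (−1.13 ± 0.15, adjusted p = 6.64e-07). With miR-205 it was higher there, at 9.18, 9.50 and 9.28 (0.71), and with miR-429 lower in HEY, PC3 and SKOV3 (−1.07, −0.57 and −0.42). The SKOV3 call rests on SKOV3 miR-NC replicate 2 and SKOV3 miR-429 replicate 1, without which it was −0.23 and −0.29 (adjusted p = 0.321 and 0.243). IL1R1 was at 5.79, 6.05 and 5.65 in PC3 miR-429, against 6.91, 6.89 and 6.96 in PC3 miR-NC (−1.09 ± 0.24, adjusted p = 0.000308), without overlap. In HEY it was lower with miR-203a at levels near background, at 3.67, 2.53 and 3.71, against 4.50, 4.37 and 4.17, a call lost without HEY miR-203a replicate 2 (−0.66, adjusted p = 0.0567). IL1A, named after its values were seen, was at 9.13, 10.06 and 9.72 in HEY miR-205, below all miR-NC arrays (10.99, 11.01 and 11.07), but its adjusted p was 0.053 (−1.39, SE 0.63). In the fit without the untransfected arrays, among which those labelled HEY gave 10.31, 5.17 and 4.62, the adjusted p was 5.53e-08.

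Cytokines of the gp130 receptor. IL6 was lower in HEY and higher in PC3 with each of the 3 precursors, the only member with calls of opposite sign between lines for all 3. In HEY it was at 7.06, 7.00 and 6.87 with miR-203a, 5.56, 5.71 and 5.61 with miR-205 and 7.03, 7.01 and 7.28 with miR-429, against 7.87, 7.77 and 7.84 with miR-NC. In PC3 it was at 10.29, 9.98 and 10.05 with miR-203a, 10.54, 10.32 and 10.99 with miR-205 and 10.70, 10.66 and 10.57 with miR-429, against 9.32, 8.93 and 9.11 with miR-NC. No array with a precursor overlapped with miR-NC in either line. The HEY differences were −0.85, −2.20 and −0.72 and those of PC3 0.99, 1.50 and 1.53 (SE 0.15), with adjusted p from 3.46e-15 (HEY miR-205) to 9.95e-05 (HEY miR-429), and the F-test of the lines gave 4.49e-08, 1.34e-15 and 1.37e-10. In SKOV3 the differences were 0.14, −0.43 and −0.21; the one with miR-205 was called (adjusted p = 0.031), but not without SKOV3 miR-NC replicate 1 or 2 or SKOV3 miR-205 replicate 2 or 3 (−0.33, −0.40, −0.40 and −0.39, adjusted p of 0.173, 0.089, 0.092 and 0.1).

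LIF, which signals through gp130 with LIFR, was higher in PC3 with miR-203a (1.23) and miR-205 (1.44), and in SKOV3 miR-205 at 8.88, 8.55 and 8.85, against 7.96, 7.96 and 7.75 in SKOV3 miR-NC (0.87 ± 0.19, adjusted p = 0.000559). IL6ST, which encodes gp130 itself, was lower with miR-203a in all 3 lines, as were 1.44% of all genes. It was at 11.09, 10.96 and 11.10 in HEY miR-203a, against 11.58 on all 3 arrays of HEY miR-NC, and at 10.25, 10.21 and 9.96 in SKOV3 miR-203a, against 10.84, 11.01 and 10.80 in SKOV3 miR-NC. In PC3 it was at 10.75, 10.94 and 10.95 with miR-203a, against 11.50, 11.57 and 11.50 with miR-NC. The groups were separate in every line, and the differences of −0.53, −0.75 and −0.64 (SE 0.12) were not called different between lines by the F-test (adjusted p = 0.56). The PC3 call was lost with the mean of its 7 probe sets (−0.26, adjusted p = 0.136), 1 of which gave 0.44. With miR-205 IL6ST was lower in HEY (−0.73) and higher in SKOV3 (0.51), and neither was called with the mean of the probe sets (−0.10 and 0.31, adjusted p = 0.549 and 0.135). Its HEY miR-429 call (−0.62) turned to 1.25 with the mean of all its probe sets. IL11 was lower in HEY miR-205 (−0.70).

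Colony-stimulating factors, TNF and IL32. CSF1, the macrophage growth factor, was lower with miR-429 in all 3 lines (HEY −0.80, SKOV3 −0.92, PC3 −1.31), as were 2.02% of all genes. In PC3 it was at 4.74, 4.96 and 4.58 with miR-429, against 6.48, 5.81 and 5.92 with miR-NC, which puts the miR-429 arrays at the background level. With miR-205 it was at 7.10, 7.09 and 7.28 in SKOV3, against 8.56, 8.62 and 8.53 (−1.41 ± 0.19, adjusted p = 5.23e-07), lower in HEY (−1.16) and higher in PC3 (0.85). The HEY call was lost with the mean of the probe sets (−0.27, adjusted p = 0.104), and the other 3 gave −0.24, 0.12 and 0.21. CSF3, the granulocyte growth factor, was at 3.94, 4.17 and 3.57 in PC3 miR-429, below background, against 5.30, 5.46 and 5.46 in PC3 miR-NC (−1.51 ± 0.24), and higher in HEY miR-205 (1.16). TNF was at 5.37, 4.69 and 5.44 in HEY miR-429, against 6.76, 6.67 and 6.85 in HEY miR-NC (−1.59 ± 0.27, adjusted p = 4.5e-06), and lower in HEY miR-205 (−1.18).

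IL32 rose most of all members in PC3 miR-203a and PC3 miR-205. It was at 6.66, 6.72 and 6.13 in PC3 miR-203a and 6.48, 6.40 and 7.28 in PC3 miR-205, against 3.23, 3.21 and 3.67 in PC3 miR-NC. The precursor arrays were above the median of all values and the miR-NC arrays below it, and the differences were 3.13 and 3.35 (SE 0.24, adjusted p = 2.65e-13 and 7.22e-14). In HEY miR-205 it was at 8.79, 8.80 and 8.46, against 6.82, 6.63 and 6.65 (1.99, adjusted p = 4.64e-09). PC3 miR-429 (0.27) and the SKOV3 groups (−0.40 to −0.02) were not called.

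NF-kB subunits. All 4 subunit genes were higher in HEY miR-205, PC3 miR-203a and PC3 miR-205, and none was called in a SKOV3 comparison with miR-NC. In these 3 groups NFKB1 was higher by 0.83, 1.29 and 1.16, NFKB2 by 1.58, 1.34 and 1.25, RELA by 0.68, 0.94 and 0.87 and RELB by 1.27, 1.06 and 1.10 (SE 0.18 to 0.22). NFKB2, which encodes the p100 precursor of p52, was at 6.61, 6.77 and 6.29 in PC3 miR-203a, against 5.73, 4.86 and 5.08 in PC3 miR-NC, with all of the first above the second. The GAPDH 5′ control probe set was higher than in miR-NC in the same 3 groups, by 3.92, 4.95 and 3.66 log2 units, and its part in the result was not tested. A second probe set of NFKB2 gave −0.32, −0.62 and −0.55 in these 3 groups, and with the mean of its probe sets neither PC3 group was called (0.11 with miR-203a and 0.18 with miR-205, adjusted p = 0.485 and 0.291). In PC3 miR-429 NFKB1 and RELB were lower, with RELB at 4.23, 4.11 and 3.60, against 4.93, 4.59 and 4.43 in PC3 miR-NC (−0.67, adjusted p = 0.0118), near background and lost without PC3 miR-NC replicate 1 or PC3 miR-429 replicate 3 (−0.53 and −0.48, adjusted p = 0.0778 and 0.104), while NFKB1 was higher in HEY miR-429 (1.22).

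Feedback inhibitors. NFKBIA, whose product takes NF-kB back out of the nucleus, was at 9.57, 9.43 and 9.29 in PC3 miR-203a and 9.74, 9.63 and 9.89 in PC3 miR-205, against 7.77, 7.87 and 8.04 in PC3 miR-NC. In HEY miR-429 it was at 8.79, 9.06 and 8.88, against 7.69, 7.57 and 7.59 in HEY miR-NC. The arrays of each pair were apart, with differences of 1.54, 1.86 and 1.29 (SE 0.21, adjusted p = 9.08e-08, 2.53e-09 and 1.9e-06). The second NFKBIA probe set, near background, gave 1.04, 1.46 and −0.17 in these 3 comparisons. TNIP1, a partner of A20 that binds ubiquitin chains, was at 10.21, 10.09 and 9.99 in PC3 miR-203a, against 8.28, 8.15 and 8.55 in PC3 miR-NC (1.77 ± 0.19), and was also higher in PC3 miR-205 (1.46) and HEY miR-205 (1.62) and lower in SKOV3 miR-205 (−0.71), a call lost with the mean of the probe sets (−0.22, adjusted p = 0.384). Another TNIP1 probe set gave −0.82 in PC3 miR-203a and −0.50 in HEY miR-205.

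TNFAIP3, which encodes the ubiquitin-editing enzyme A20, was at 5.93, 6.44 and 6.03 in HEY miR-429, against 7.71, 7.65 and 7.63 in HEY miR-NC (−1.53 ± 0.20, adjusted p = 3.3e-08). With miR-205 it was lower in HEY (−1.24) and higher in PC3 (1.27), and both groups were apart from miR-NC on all arrays (line difference adjusted p = 4.1e-09). NFKBIZ, an atypical IkB of the nucleus that helps switch on some target genes, was lower with miR-205 in HEY (−1.04), SKOV3 (−0.53) and PC3 (−0.36), as was CXCL5, where 2.5% of all genes were lower in all 3 lines. CXCL5 was near background in the ovarian lines, and its SKOV3 call was lost without any 1 of the 3 SKOV3 miR-NC arrays or without SKOV3 miR-205 replicate 1 or 3 (−0.41 to −0.30, adjusted p up to 0.178). The NFKBIZ call in SKOV3 was lost without SKOV3 miR-NC replicate 2 (−0.43, adjusted p = 0.0508), and that in PC3 without PC3 miR-NC replicate 2 or 3 or PC3 miR-205 replicate 2 or 3 (−0.35, −0.34, −0.35 and −0.29, adjusted p of 0.081, 0.0952, 0.0838 and 0.152) or with the mean of the probe sets (−0.26, adjusted p = 0.073). It was also lower in PC3 miR-203a (−1.09) and SKOV3 miR-429 (−0.74).

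Other induced genes. TNFAIP2 was at 10.17, 10.20 and 10.15 in PC3 miR-203a and 10.36, 10.50 and 9.79 in PC3 miR-205, against 6.66, 7.64 and 8.08 in PC3 miR-NC. The miR-NC arrays were widely spread, and all of them lay below the others (2.71 and 2.76, SE 0.25, adjusted p = 3.02e-11 and 2.91e-11). In HEY miR-429 it was at 6.98, 6.00 and 6.88, against 8.55, 8.07 and 8.61 in HEY miR-NC (−1.79, adjusted p = 1.91e-07). The gene's other probe set, near background on average, gave 0.04 and −0.26 in the PC3 groups and 0.38 in HEY miR-429. ICAM1, the leukocyte adhesion receptor, was at 7.69, 7.79 and 8.16 in PC3 miR-205, against 6.54, 5.84 and 6.07 in PC3 miR-NC (1.73 ± 0.21), and was higher in HEY miR-205 (1.92) and PC3 miR-203a (1.01). IL32, TNFAIP2, ICAM1 and TNIP1 were all higher in HEY miR-205, PC3 miR-203a and PC3 miR-205, the groups with the higher GAPDH 5′ control named with the subunits; the call of TNFAIP2 in HEY miR-205 (0.66) was lost without HEY miR-NC replicate 2 or HEY miR-205 replicate 2 (0.49 and 0.54, adjusted p = 0.129 and 0.0934).

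PTGS2 was at 3.33, 3.34 and 3.10 in HEY miR-205 and 3.79, 4.08 and 4.29 in HEY miR-203a, against 5.44, 5.32 and 5.37 in HEY miR-NC, with the precursor arrays below background (−2.12 and −1.32, SE 0.16, adjusted p = 3.96e-14 and 1.72e-07). In PC3, where it was high, it was higher with miR-205 (0.68) and lower with miR-429 (−0.66). SOD2 was not called in any of the 9 comparisons with miR-NC, with differences of −0.03 to 0.54; without the untransfected arrays it was called higher in HEY miR-205, HEY miR-429, SKOV3 miR-429 and PC3 miR-429.

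**Figure D4:**
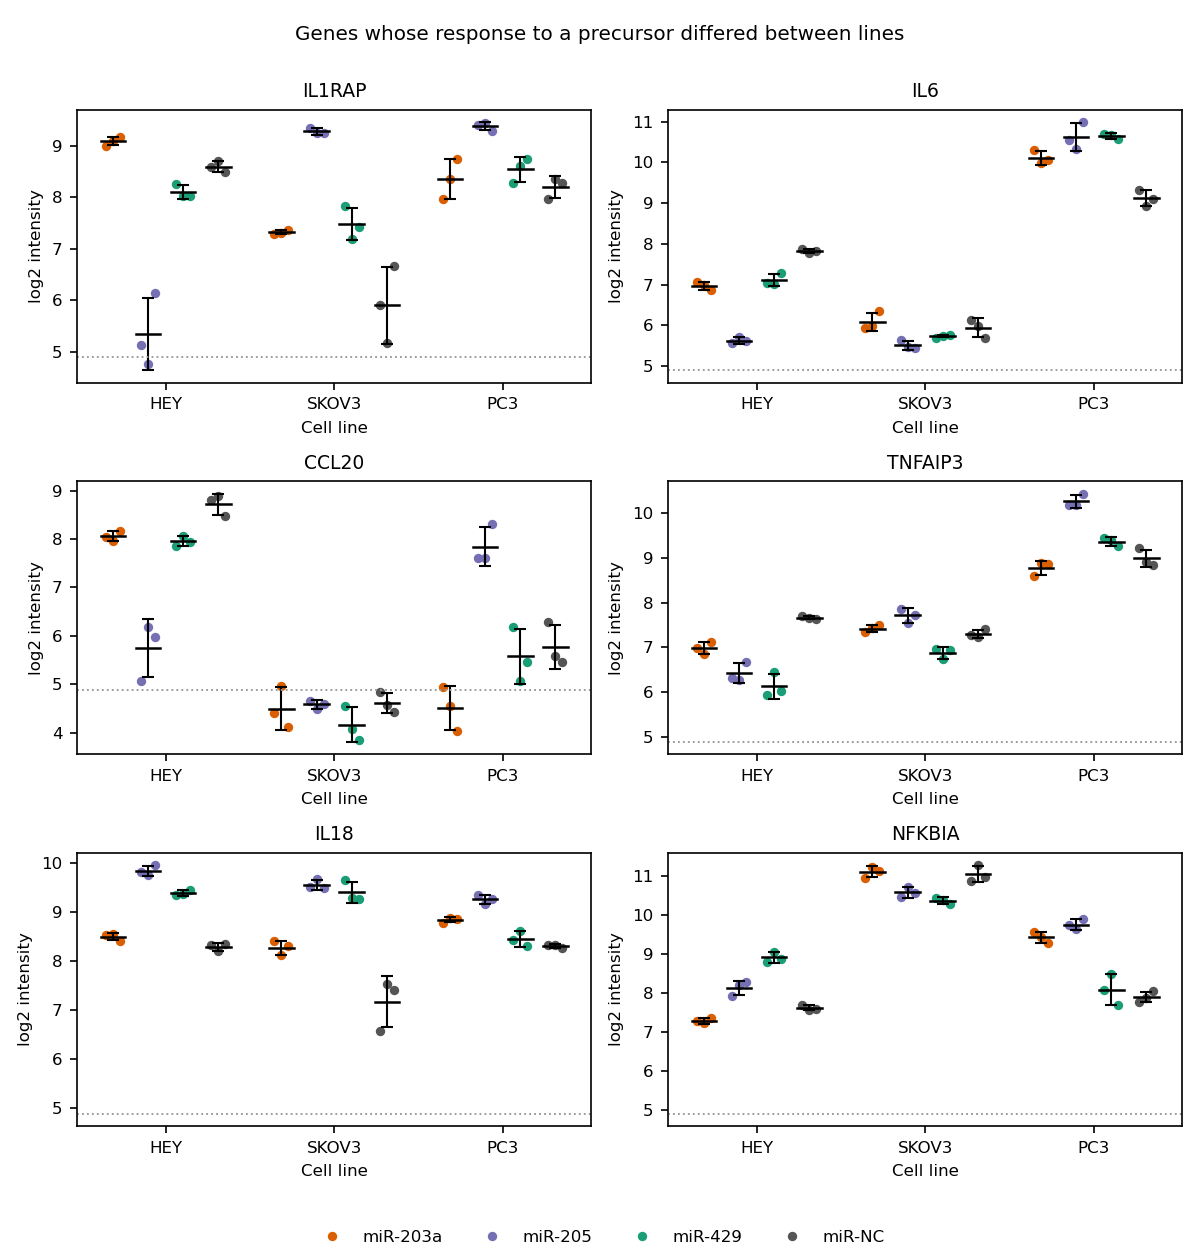
Log2 intensity of IL1RAP, IL6, CCL20, TNFAIP3, IL18 and NFKBIA on each array (1 point each) by line and precursor, with miR-NC at the right of each line, the mean ± SD of each group as bars and a dotted line at 4.89. With miR-205, IL6 averages 5.63 in HEY and 10.62 in PC3, against 7.83 and 9.12 with miR-NC, while IL18 lies above miR-NC in all 3 lines.

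Opposite calls were counted over all members. With miR-205, 12 of 33 (36.4%) were called higher in 1 line and lower in another, against 14.4% of all genes. They were CXCL3, CXCL8, CCL20, IL1RAP, IL6, LIF, IL6ST, CSF1, TNF, TNFAIP3, TNIP1 and PTGS2. With miR-203a it was 2 (IL6 and TNFAIP2; 6.06%, all genes 2.99%) and with miR-429 5 (CXCL6, IL6, CSF3, NFKB1 and NFKBIA; 15.2%, all genes 16.6%). The response differed between lines by the F-test for 28 members with miR-205 (all genes 69.6%), 21 with miR-203a (44.9%) and 20 with miR-429 (66.5%). In the fit without the arrays labelled untransfected, 16 members with miR-205 had opposite calls (all genes 18%), 2 with miR-203a (4.53%) and 9 with miR-429 (20.6%), and the F-test called 30, 22 and 24 (all genes 73.1%, 51% and 70.7%). With a stricter filter on dim probe sets, 11 of 29 members had opposite calls with miR-205 (all genes 20.5%). The counts under that filter were 2 with miR-203a (4.86%) and 6 with miR-429 (22.2%). With the mean of the probe sets, opposite calls were 11 of 32 members with miR-205 (all genes 13%), 3 with miR-203a (2.97%) and 9 with miR-429 (16.6%). IL6ST and TNIP1 were not among those with miR-205. Some of the opposite calls rest on single arrays. LIF in HEY miR-205 (−0.49) was not called without HEY miR-NC replicate 3 or HEY miR-205 replicate 1 or 3 (−0.44 to −0.43, adjusted p up to 0.0809), nor TNFAIP2 in HEY miR-203a (−0.73) in 5 of 6 refits, the exception being without HEY miR-NC replicate 2 (−0.76 to −0.64, up to 0.169). CSF3 in HEY miR-429 (0.73) was not called without HEY miR-NC replicate 1 or 2 or HEY miR-429 replicate 3 (0.44 to 0.59, up to 0.135), nor NFKBIA in SKOV3 miR-429 (−0.68) without SKOV3 miR-NC replicate 2 or SKOV3 miR-429 replicate 3 (−0.56 and −0.63, adjusted p = 0.0931 and 0.0603). NFKB1 in PC3 miR-429 (−0.55) was not called without PC3 miR-NC replicate 1 or 3 or PC3 miR-429 replicate 3 (−0.51 to −0.37, up to 0.205).

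PC3 miR-205 and PC3 miR-203a, which both had a higher GAPDH 5′ control than PC3 miR-NC, were also set against each other with no miR-NC array. The 2 groups still differed in such controls. With miR-205 the GAPDH 5′ probe set averaged 8.70 and the ACTB 5′ probe set 7.45, against 9.99 and 8.44 with miR-203a. The part of this in the results was not tested. Of 33 members 11 were called, all higher with miR-205, where 24.8% of all genes were called (12.9% higher, 11.9% lower), and the member median was 0.37 (all genes −0.03). CCL20 differed most, at 7.62, 7.61 and 8.30 with miR-205, against 4.95, 4.56 and 4.05 with miR-203a (3.32 ± 0.27, adjusted p = 3.19e-12). TNFAIP3 was at 10.18, 10.17 and 10.42, against 8.59, 8.87 and 8.85 (1.48 ± 0.20, adjusted p = 3.79e-07), and CSF1 at 6.71, 6.79 and 7.27, against 5.48, 5.43 and 5.81 (1.35 ± 0.19). None of these arrays overlapped. The CSF1 call was lost with the mean of the probe sets (0.33, adjusted p = 0.0971), and the gene's other 3 probe sets gave 0.64, −0.22 and −0.44.

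CXCL3 was higher in PC3 miR-205 than in PC3 miR-203a by 1.19, IL1RAP by 1.02, NFKBIZ by 0.73, PTGS2 by 0.69 and IL6ST by 0.58. ICAM1 (0.72), IL6 (0.51) and CXCL5 (0.41) were also called, but ICAM1 not without PC3 miR-205 replicate 3 (0.58, adjusted p = 0.0742), IL6 not without PC3 miR-205 replicate 3 or PC3 miR-203a replicate 2 (0.32 and 0.44, adjusted p = 0.142 and 0.0606), and CXCL5 not without PC3 miR-203a replicate 1 or 2 or PC3 miR-205 replicate 2 or 3 (0.26 to 0.39, up to 0.252). The 4 NF-kB subunits differed by −0.13 to 0.04 and were not called, and IL32 and TNFAIP2, which were high in both, differed by 0.22 and 0.05. Without the arrays labelled untransfected 16 members were called, again all higher with miR-205 (all genes 30.6%).

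**Figure D5:**
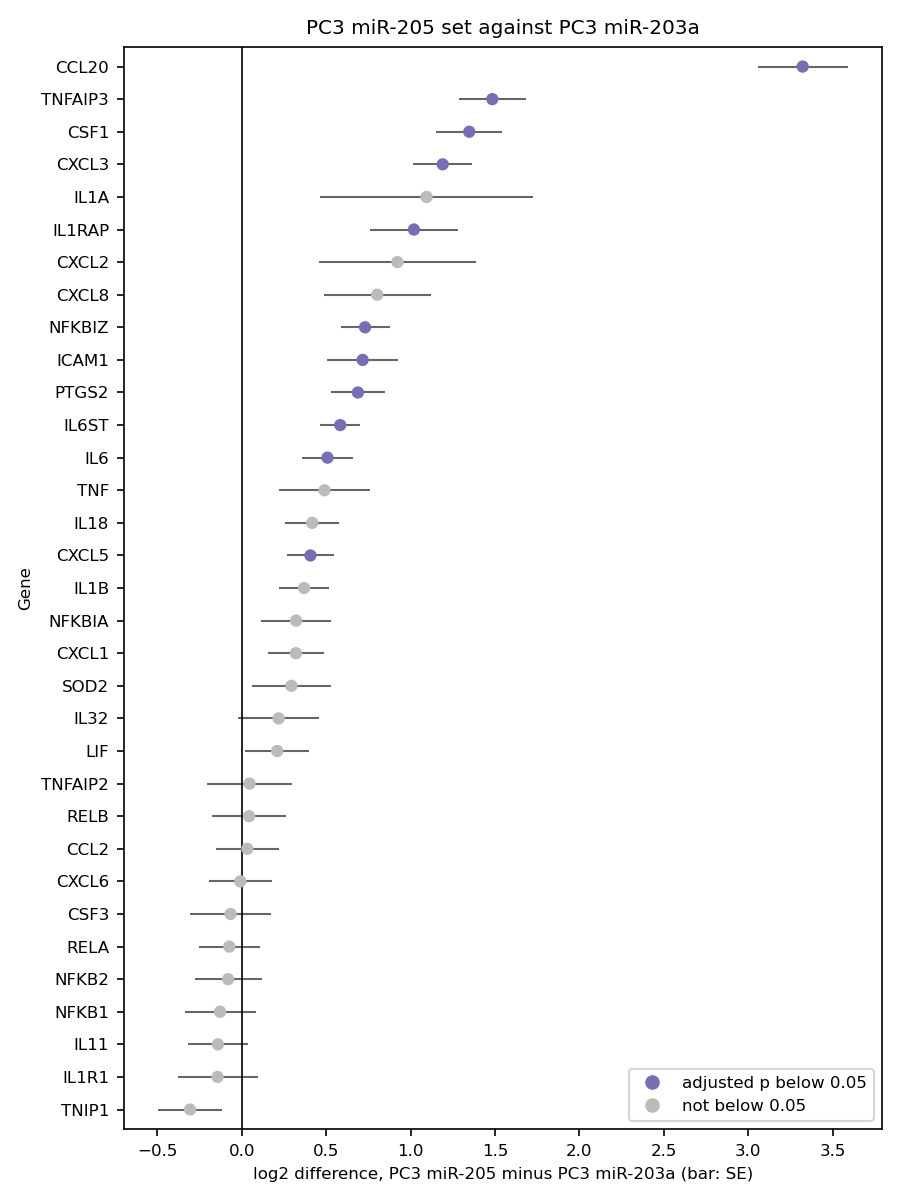
Log2 difference of each member between PC3 miR-205 and PC3 miR-203a with its standard error as a bar, ordered by size, in purple where called and grey where not. All called members lie to the right of 0, CCL20 farthest at 3.32, and the NF-kB subunits lie at 0 within their error.

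Other genes of the same pathways, 59 listed by name and 51 tested, were counted beside the members. With miR-205, 11 of 51 were called higher and 23 lower in HEY, 12 and 2 in SKOV3 and 20 and 7 in PC3; with miR-203a 3 and 7, 1 and 2, and 15 and 12; and with miR-429 9 and 23, 6 and 8, and 13 and 17. In HEY, SKOV3 and PC3 these made 66.7%, 27.5% and 52.9% of the 51 with miR-205 (all genes 65.8%, 25.6% and 48.4%), 19.6%, 5.88% and 52.9% with miR-203a (13.2%, 11.9% and 56.1%), and 62.7%, 27.5% and 58.8% with miR-429 (56.8%, 22.1% and 46%). Without the arrays labelled untransfected, SKOV3 had 13 higher and 4 lower with miR-205, 2 and 2 with miR-203a and 8 and 12 with miR-429. CYLD, a deubiquitinase that restrains NF-kB, was below miR-NC in each line with miR-205 (−2.05 in HEY, −1.37 in SKOV3 near background, −1.43 in PC3). TLR2 and IL1RN, the natural antagonist of the IL-1 receptor, were higher in all 3 with miR-205, where 2.77% of all genes were called higher and 2.5% lower in all 3. LIFR was the only pathway gene lower in all 3 with miR-203a (−1.40, −1.76 and −1.78; all genes 1.44%). With miR-429, IKBKB, a kinase that marks IkB for destruction (−1.71, −0.80 and −0.80), OTULIN, which removes linear ubiquitin (−2.10, −0.65 and −0.94), TLR3 and IL11RA were lower in all 3 (all genes 2.02%), and BIRC2 was higher (1.58%).

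STAT3, which carries the signal of gp130, was higher in HEY and SKOV3 with each of the 3 precursors (0.99 to 1.72), whereas in PC3 its probe set was below background in all groups (2.91 in miR-NC). TLR3, a receptor for double-stranded RNA, was higher by 3.34 in PC3 miR-205 than in PC3 miR-NC and lower in PC3 miR-203a (−1.86). MYD88, the adaptor of IL-1 and Toll-like receptors, was higher in PC3 miR-205 (1.36), and IL1RN by 1.77.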

How the data were processed

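RNA amplified from the 3′ end was hybridised to 1-colour human arrays of 54675 probe sets. The authors deposited 1 table of log2 values for 45 arrays, normalised by RMA per the submitters' processing notes; the RMA version and any batches are not given in the sources used here. No column belonged to another series (0 such columns).

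Probe sets with 1 gene symbol in the platform annotation (41097; 1801 had several and 11777 none) were kept, the brightest on average stood for its gene, and a gene was tested if its highest group mean exceeded 4.89, the median over the whole table, which 15599 did. The expression of CSF2 and BIRC3 was not analysed here. Group means of all 45 arrays were fitted with limma 3.58.1 in R 4.3.3 (lmFit, eBayes, 30 residual degrees of freedom), with Benjamini-Hochberg adjustment over all genes and a threshold of 0.05; line differences used the moderated F-test. Sequences and plots were made with Python 3.11.15, pandas 2.3.3, numpy 2.4.6 and matplotlib 3.10.9. The fit was tested on simulated data.

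The members and lists were chosen with earlier results of these data known. Values per array are given for up to 6 called members with the largest difference in each comparison, and other called members may be named with their difference. The alternatives changed the normalisation, the filter, the probe set, the variance model, the samples in the fit, a replicate block, and each array left out. Replicates of transfected groups correlated at 0.981 or more, and 0 of 990 array pairs were identical.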

Additional observations from a re-analysis of the deposited data

Results flagged for a closer look

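These results differ between the cell lines by the moderated F-test of limma, as adjusted p over all genes tested, and were picked out for that reason. With miR-203a the response differed for 21 of 33 members (all genes 44.9%), with the smallest adjusted p for TNFAIP2 (4.91e-10), IL32 (4.25e-09), IL6 (4.49e-08), TNIP1 (1.07e-07) and NFKBIA (5.43e-06). Their log2 differences to miR-NC in HEY, SKOV3 and PC3 were −0.73, −0.51 and 2.71 for TNFAIP2, 0.66, −0.02 and 3.13 for IL32, −0.85, 0.14 and 0.99 for IL6, 0.05, −0.32 and 1.77 for TNIP1, and −0.34, 0.07 and 1.54 for NFKBIA. With miR-205 it differed for 28 of 33 members (all genes 69.6%), led by IL1RAP (4.64e-16), IL6 (1.34e-15), CCL20 (5.66e-13), PTGS2 (2.09e-12) and IL32 (1.76e-10). In the same lines the differences were −3.25, 3.37 and 1.18 for IL1RAP, −2.20, −0.43 and 1.50 for IL6, −2.97, −0.03 and 2.07 for CCL20, −2.12, −0.23 and 0.68 for PTGS2, and 1.99, −0.20 and 3.35 for IL32. With miR-429 it differed for 20 of 33 members (all genes 66.5%), led by IL6 (1.37e-10), IL18 (7.47e-09), CXCL6 (1.55e-06), TNFAIP3 (2.06e-06) and CXCL1 (2.42e-06). Here the differences were −0.72, −0.21 and 1.53 for IL6, 1.09, 2.23 and 0.15 for IL18, 0.78, −0.17 and −1.04 for CXCL6, −1.53, −0.43 and 0.37 for TNFAIP3, and −1.25, −1.10 and 0.18 for CXCL1.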

How the results depend on the processing

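Counts of members called stayed within 1.5 times the value given under the alternatives run, apart from those named here. With a separate fit per line the count was 6 for HEY miR-203a, 16 for SKOV3 miR-429 and 17 for PC3 miR-205 against PC3 miR-203a, and without the arrays labelled untransfected it was 17 for SKOV3 miR-429. The counts of opposite calls between lines were added to the alternatives after seeing the data. With miR-429 the count was 9 without the arrays labelled untransfected (all genes 20.6%), with equal array medians (19.7%) and with the mean of the probe sets (16.6%). With miR-203a it was 1 with the replicate block (all genes 3%), with equal array medians (2.97%) and with no filter (2.07%). It was 1 to 2 with miR-203a, 11 to 12 with miR-205 and 4 to 6 with miR-429 when 1 array was left out. Leaving out 1 array gave 7 to 12 for HEY miR-203a, 5 to 6 for SKOV3 miR-203a, 17 to 19 for PC3 miR-203a, 27 to 29, 8 to 11 and 20 to 23 for miR-205 in the same lines, 17 to 21, 8 to 11 and 8 to 12 for miR-429, 8 to 11 for PC3 miR-205 against PC3 miR-203a, 27 to 28, 23 to 24 and 22 to 25 for PC3 against SKOV3, PC3 against HEY and SKOV3 against HEY, and 19 to 21, 27 to 29 and 19 to 22 for the line differences with the 3 precursors in that order. Replicate numbers did not pair the arrays (correlations of same-numbered deviations of −0.15 to 0.13), and with the replicate block the counts were 11, 6 and 19 for miR-203a in HEY, SKOV3 and PC3, 29, 12 and 24 for miR-205, and 20, 10 and 11 for miR-429. When all probe sets of a gene were averaged, CSF1 in PC3 miR-203a was 0.11, IL6ST and NFKBIZ in HEY miR-429 1.25 and 0.53, IL6ST, NFKB2 and NFKBIZ between SKOV3 and HEY 0.55, 0.46 and 0.64, and IL6ST between PC3 and SKOV3 −1.15, all opposite in sign to the values of the brightest probe set. Without probe sets that may cross-hybridise, CXCL8 between PC3 and SKOV3 was −1.31. Of 232 called values, 11 lost their call with equal array medians, 12 after quantile normalisation and 18 with separate fits, and of the 222 that could be run with averaged probe sets 14 lost their call beside the 7 that turned, and the cause was not tested. The signal of many groups lies near background for CXCL5, CXCL6, CCL2, PTGS2, TNF and IL32, which limits the size of their differences.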
